A study of Mus musculus with 10 samples.

Results

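The cytosolic ribosomal protein genes were followed through RNA sequencing of mouse popliteal lymph nodes, the nodes that drain the hind paw. They were taken by name, as protein-coding genes called Rpl or Rps with a number, Rplp0 to Rplp2 or Rpsa. This gave 83 of the 54987 genes in the deposited table, 51 of the large and 32 of the small ribosomal subunit. The name rule also admits tissue-restricted paralogues such as Rpl3l, and it leaves out Fau and Rack1, whose products are ribosomal too. All mice were described as male BALB/c of 6 to 8 weeks, with nodes taken on day 15. The Control group (n = 3, libraries 15, 16 and 17) received saline in the right hind paw. The AIA group (n = 4, libraries 5, 10, 31 and 38) received 0.1 ml of complete Freund's adjuvant there, a killed-mycobacteria oil emulsion that induces arthritis. The Acu group (n = 3, libraries 4, 6 and 28) received the same adjuvant and acupuncture at the ST36 point below the knee. Nothing in the labels ties a library to a mouse of its own, so a p-value here reflects how far the libraries of a group differ, and that spread may be technical.

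Each cytosolic ribosome carries 1 copy of most of these proteins, bound to ribosomal RNA, so a cell that makes more ribosomes needs nearly all of them together. Their mRNAs are among the most abundant of any cell and begin with a C followed by a run of C and T bases, the terminal oligopyrimidine tract, through which the kinase mTOR and the protein LARP1 set their translation. Lymphocytes are known to raise ribosome production when they are activated and divide, as they do in a node that drains an injected paw. The genes have left many processed pseudogenes, intronless copies of their mRNAs spread over the genome, and short reads can match a gene and its copies equally well.

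RefSeq start sites on GRCm38.p6 were on hand for 63 of the 83 genes, as 75 promoter sequences. An unbroken run of at least 8 C or T bases between 15 bases before and 45 bases after the start was present in 44 of the 75 (58.7%), and in 21.7% of all 32851 promoters. The start windows below are shown because they set 4 core genes beside 3 paralogues. All 4 core genes were called higher in AIA than in Control in the 7-library fit described further on. The genes were chosen after values were seen. Of the paralogues, Rpl3l fell in that fit, Rpl39l did not pass, and Rpl10l had no reads and was not tested. Where a gene had several start sites, the window with the longest run was taken, except for Rpl3l, where the start nearest the gene start was. The run lengths thus depend partly on this choice, and Rpl3, Rpl10 and Rpl39, the partners of these paralogues, are not shown. Each window runs from 15 bases before to 15 bases from the start on, and the longest run of at least 8 C or T bases is in capitals.
Rps10, chr17:27635230-27635259, minus strand: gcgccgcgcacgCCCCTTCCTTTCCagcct
Rpl15, chr14:18270972-18271001, minus strand: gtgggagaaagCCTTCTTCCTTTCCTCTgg
Rpl35, chr2:39005117-39005146, minus strand: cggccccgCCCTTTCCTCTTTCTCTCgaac
Rps6, chr4:86857353-86857382, minus strand: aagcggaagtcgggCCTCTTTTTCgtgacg
Rpl3l, chr17:24727811-24727840, plus strand: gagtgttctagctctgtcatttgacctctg
Rpl10l, chr12:66284387-66284416, minus strand: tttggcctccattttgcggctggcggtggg
Rpl39l, chr16:10170213-10170242, plus strand: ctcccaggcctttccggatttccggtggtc
The run was 13 bases long in Rps10, 17 in Rpl15, 18 in Rpl35 and 10 in Rps6. The longest such run in the windows of Rpl3l, Rpl10l and Rpl39l was 5, 5 and 7 bases. Over the 300 bases from 250 before to 50 after the start, the ETS-type sequence CCGGAAG, sought on both strands, was present in 36% of the promoters and in 8.86% of all promoters. The sequence AAGATGGC, which can share its first 3 bases with the end of the former, was present in 10.7% against 2.75%. The TATA-type sequence TATAAA was present in 9.33% against 13.6%. A match is a description of these letters and not a measured binding site.

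Some libraries stood apart, or carried markers of other tissue, before any comparison was made. The libraries labelled Control 17 and Acu 4 held all 10 decidua and uterus markers above 1 FPKM (fragments per kilobase of gene, scaled for sequencing depth), with summed levels of 12635 and 4763 FPKM, against 13 to 129 FPKM in the other 8 libraries. Trophoblast markers summed to 71.3 FPKM in Control 17 and 7680 FPKM in Acu 4, and to at most 2.16 FPKM in the others. Decidua and trophoblast are not part of a male lymph node, and where Control 17 and Acu 4 came from was not tested. B cell markers summed to 6.79 and 6.82 FPKM in Control 17 and Acu 4. In every AIA library, Acu 6, Acu 28 and Control 16 they summed to between 1075 and 1484 FPKM. Control 15 also had few lymphocyte transcripts, with a B cell sum of 9.75 FPKM and an adipocyte sum of 28709 FPKM. Control 16 was thus the one Control library with B cell markers at the AIA level. Its T cell markers summed to 258 FPKM, below the 435 to 531 FPKM of AIA. It also held 9867 FPKM of adipocyte and 13527 FPKM of skeletal muscle markers. AIA 10 had lymphocyte markers at the level of the other AIA libraries but only 15116 genes above 0, against 21224 to 24411 in the other libraries, and 231 FPKM of mt-Co1, against at least 4511 FPKM. Values are therefore given for all 10 libraries, for 8 libraries without Control 17 and Acu 4, and for 7 libraries without AIA 10 as well.

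The ribosomal protein genes took a larger share of the transcriptome in every AIA library than in any Control library. Summed over the 83 genes, they made up 2.78%, 4.74% and 6.19% of all FPKM in Control 15, 16 and 17. The share was 6.93%, 23.3%, 7.62% and 8.09% in AIA 5, 10, 31 and 38, and 5.99%, 8.81% and 10.1% in Acu 4, 6 and 28. AIA 10 was far above every other library, Acu 6 and Acu 28 lay above the other 3 AIA libraries, and Acu 4 fell in the Control range. The mean was 4.57% ± 1.71 (SD, n = 3) in Control, 11.5% ± 7.87 (SD, n = 4) in AIA and 8.29% ± 2.09 (SD, n = 3) in Acu. Without Control 17, Acu 4 and AIA 10 it was 3.76% ± 1.38 (SD, n = 2), 7.54% ± 0.583 (SD, n = 3) and 9.44% ± 0.886 (SD, n = 2).

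**Figure D1:**
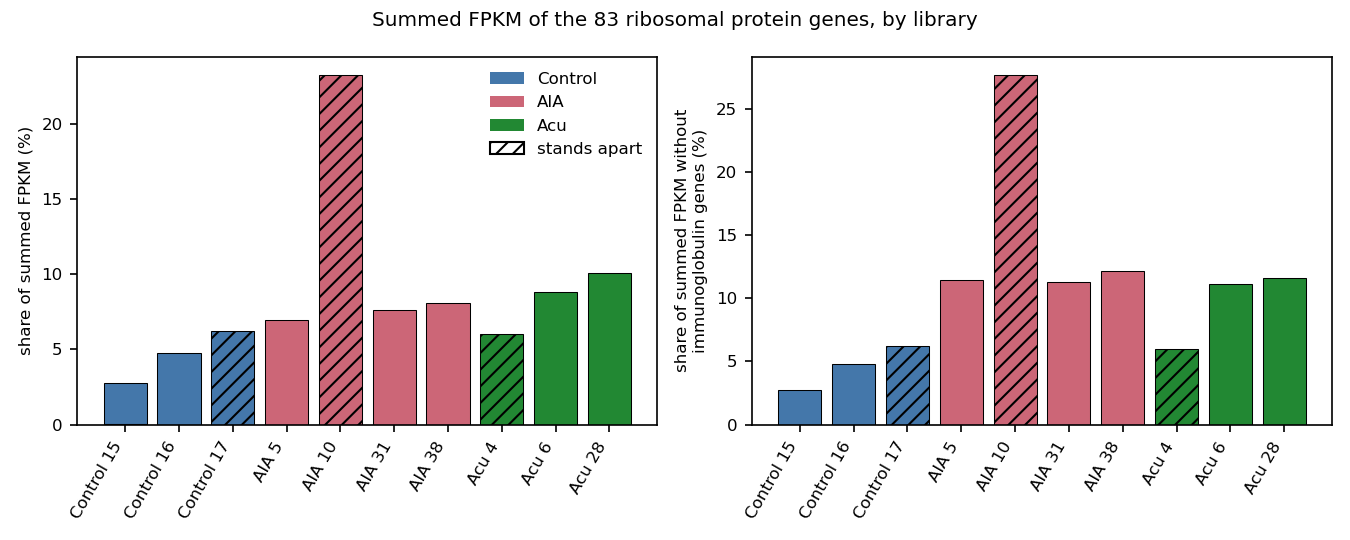
Share of summed FPKM taken by the 83 ribosomal protein genes, as 1 bar per library, over all genes (left) and with immunoglobulin genes left out of the sum (right); hatched bars are the libraries that stand apart. AIA 10 reaches 23.3% and 27.7%, and once immunoglobulin genes are left out the other AIA libraries (11.3% to 12.1%) and Acu 6 and 28 (11.1% and 11.6%) lie close together.

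Immunoglobulin transcripts entered this share through the sum. They took 39.6%, 32.3% and 33.4% of all FPKM in AIA 5, 31 and 38, 20.8% and 13.4% in Acu 6 and 28, and at most 1.11% in a Control library. With them left out, the ribosomal share was 11.5%, 11.3% and 12.1% in AIA 5, 31 and 38 and 11.1% and 11.6% in Acu 6 and 28. These 5 libraries then overlapped, while the 3 Control libraries remained at 2.78%, 4.79% and 6.19%. Mitochondrially encoded transcripts entered it too, at 24.5%, 34.2% and 5.72% of all FPKM in Control 15, 16 and 17 and 1.34% to 10.4% in AIA. With these left out instead, the ribosomal share was 3.68%, 7.19% and 6.57% in Control 15, 16 and 17, and 7.73%, 23.6%, 8.50% and 8.65% in AIA 5, 10, 31 and 38, so that Control 16 lay close below AIA 5. With both kinds left out, it was 3.68% to 7.32% in Control and 13.3% to 28.2% in AIA. In Acu 4, 6 and 28 it was then 6.21%, 11.7% and 12.8%, below every AIA library. In tissue RNA of this kind, fewer cells of a type and less RNA per cell cannot be told apart.

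Large- and small-subunit genes kept a steady ratio. The summed FPKM of large-subunit genes was between 1.22 and 1.39 times that of small-subunit genes in 8 libraries, 1.47 times in Acu 4 and 1.52 times in AIA 10. The AIA mean without AIA 10 was 1.25 ± 0.0229 (SD, n = 3), and the Control mean was 1.33 ± 0.0555 (SD, n = 3).

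Levels differed widely among the genes. FPKM divides by the deposited gene length, the merged length of a gene's exons, which exceeds the mature mRNA for many of these genes (6270 bases for Rps15a), so levels between genes are only roughly comparable. Rplp1, an acidic protein of the stalk that recruits elongation factors, had the highest level. It stood at 1100, 1315 and 1522 FPKM in Control 15, 16 and 17, at 2065, 19086, 1910 and 2215 FPKM in AIA 5, 10, 31 and 38, and at 2200, 2649 and 2940 FPKM in Acu 4, 6 and 28. Its Acu libraries were all above its Control libraries, and AIA 10 was far above the rest. Rps15, Rpl36, Rpl41, Rpl19 and Rpsa followed by mean FPKM. At the low end Rpl10l, a testis paralogue of Rpl10, had 0 reads in all 10 libraries, which allows up to 0.145 to 0.259 FPKM per library (3 reads). The other low genes were Rpl39l, a paralogue best known from testis, and Rpl24, Rpl21, Rpl3l and Rpl35a. For Rpl24, Rpl21 and Rpl35a many reads were assigned to their sequence copies instead. Outside Control 17 and Acu 4, Rpl24 itself held 7.82% to 15.5% of the joint reads. Rpl21 held 1.53% to 4.66% and Rpl35a 15.7% to 55.1% in the same libraries.

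**Figure D2:**
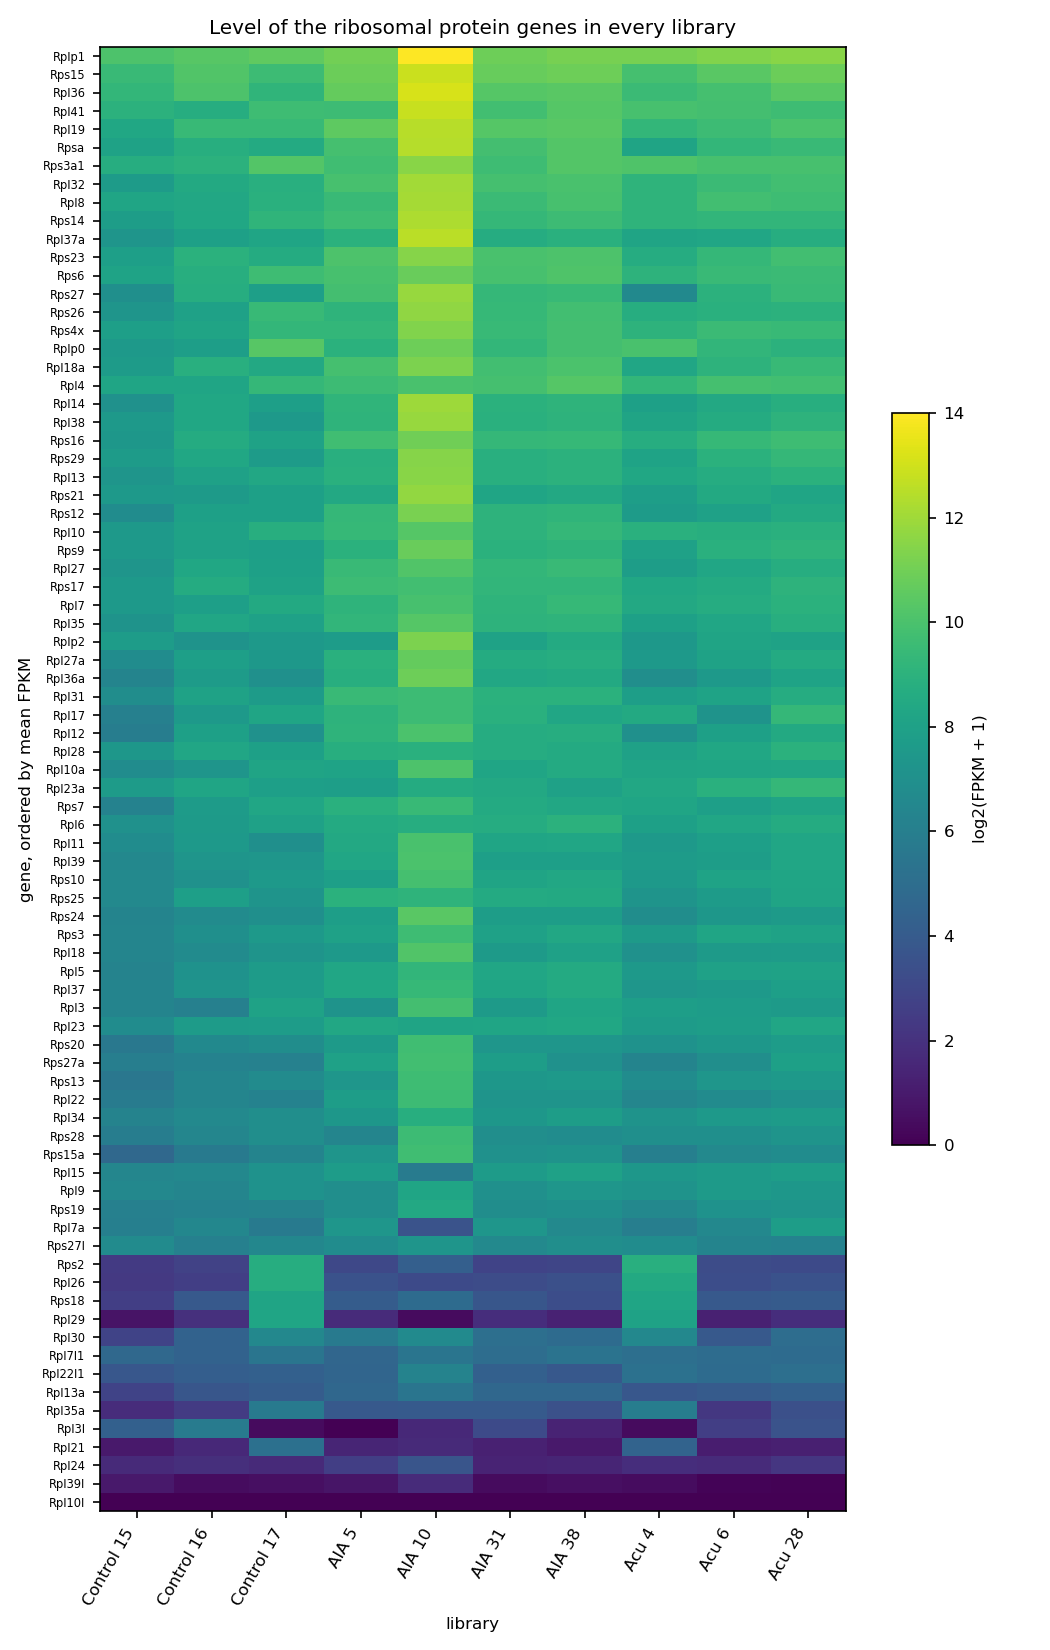
log2(FPKM + 1) of the ribosomal protein genes reported here (rows, highest mean at the top) in each library (columns). The AIA 10 column is brighter than the others for most genes, and Rps2, Rpl26, Rps18, Rpl29, Rpl35a and Rpl21 are bright in Control 17 and Acu 4.

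Most of the genes moved as a block from library to library. The median gene stood at a log2(FPKM + 1) of 6.82, 7.68 and 7.92 in Control 15, 16 and 17, at 8.79, 9.95, 8.54 and 8.54 in AIA 5, 10, 31 and 38, and at 7.90, 8.14 and 8.39 in Acu 4, 6 and 28. Every AIA library was above every Acu library, and every Acu library except Acu 4 was above every Control library. After this median was subtracted in each of the 7 libraries, Rpl27a and Rpl13a had SDs of only 0.10 and 0.11. The genes that followed the block least in the same libraries were Rpl3l (SD 2.43), Rpl39l (0.85), Rpl23a (0.74) and Rps27l (0.71), 3 of which are paralogues. Rpl39l averaged 0.52 FPKM in AIA 5, 31 and 38. At that level log2(FPKM + 1) moves little, so its SD largely reflects the subtracted median.

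Comparing AIA with Control asks how the genes stood in a node after adjuvant. In all 10 libraries 76 of the 82 tested genes had a positive log2 fold change, AIA minus Control. Their median was 1.52, against -0.07 over all 17010 genes tested. None passed an adjusted p of 0.05 in limma, where 0.0118% of all genes passed upward and 0.0118% downward, and 54 had an unadjusted p under 0.05, all upward. All 4 AIA libraries were above all 3 Control libraries for 57 of the 82 genes, a pattern that 11.4% of all genes tested showed, and below them for none, against 13.8%. Scaling the libraries to the same summed FPKM moved the median of all genes to -0.31, and the ribosomal median was 1.15, which leaves it 1.45 above all genes, against 1.58 in the main scaling.

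The count of genes past the threshold depended on which libraries were kept. Without Control 17 and Acu 4, Rpl35a, Rpl5, Rpl13a, Rpl37 and Rpl7 rose and Rpl3l fell (5 and 1 of 82, where 4.29% and 9.2% of all genes passed upward and downward), with a median of 1.73. Without AIA 10 as well, 46 genes rose and Rpl3l fell, where 10.1% and 11.2% of all genes passed, with a median of 1.40. The 47 genes past the threshold became 7 without AIA 5, 2 without AIA 31 and 1 without AIA 38. The share of all genes that passed in these fits is not given here. Leaving out Control 15, Control 16, Acu 6 or Acu 28 from the 7 libraries puts a single library in a group, so no counts are given for that. In the same 7 libraries, AIA 5, 31 and 38 were all above both Control libraries for 71 of the 82 genes and for 28.3% of all genes. With limma array weights on all 10 libraries, 32 genes rose, where 8.22% of all genes did. With Control 16 as the only Control library (Control 15, Control 17 and Acu 4 left out) none passed, and the median was 1.34 with 76 of 81 genes positive, against -0.03 over all genes; that lone library is assumed to vary like the other groups.

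Markers of other cell types differed between these groups too. Dividing-cell markers summed to 13.0 to 26.3 FPKM in the Control libraries and 156 to 236 FPKM in AIA. All 10 of 10 rose in the 8- and 7-library fits, where 4.29% and 10.1% of all genes did. The sum over plasma cell markers was 99.3 to 150 FPKM in Control, and in AIA it was 2615 to 4344 FPKM. The sum over adipocyte markers was 237 to 28709 FPKM in Control, against 50.1 to 418 FPKM in AIA. All 9 tested fell in the 8- and 7-library fits, where 9.2% and 11.2% of all genes did. Adipoq, Plin1 and Cfd were at 0 in Control 17. T cell markers reached 5.25 to 258 FPKM in Control, against 435 to 531 FPKM in AIA. The part of these cell types in the ribosomal difference was not tested.

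**Figure D3:**
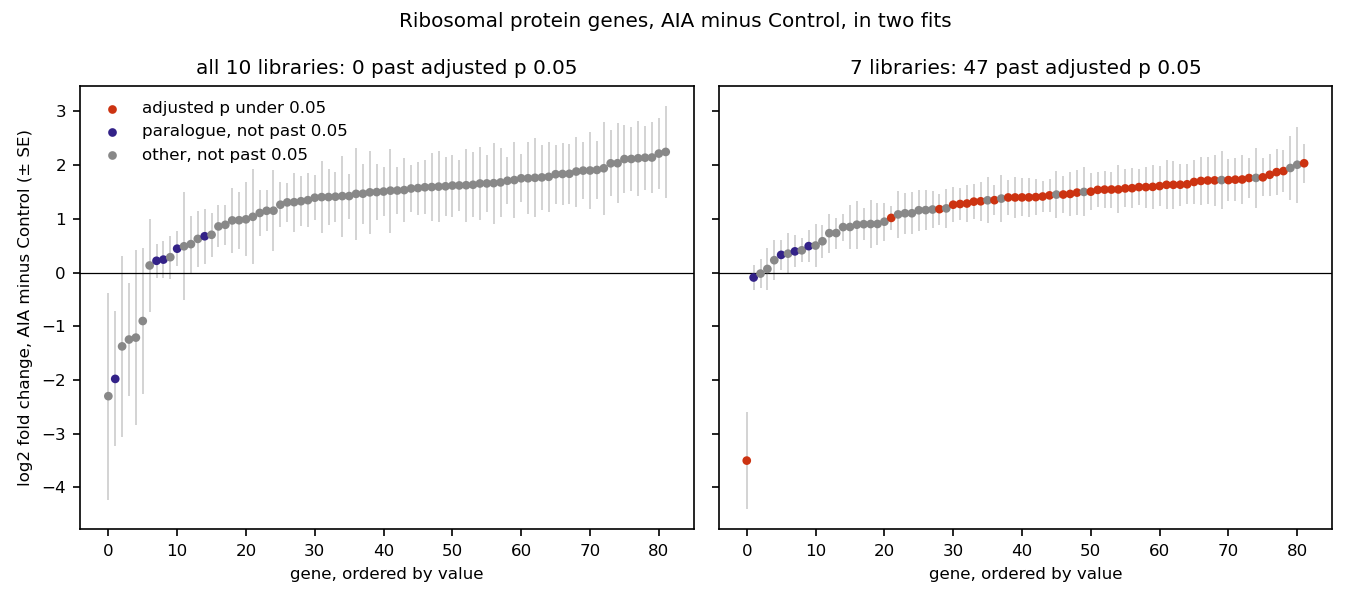
log2 fold change, AIA minus Control, of the 82 tested ribosomal protein genes (points, in order of value, with limma's standard error as bars) with all 10 libraries (left) and 7 libraries (right). No gene is past an adjusted p of 0.05 on the left and 47 are on the right, of which Rpl3l, at -3.50, is the only one below 0.

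Among small-subunit genes the median was 1.60 in all 10 libraries and 1.45 in 7, with 19 of 32 rising in 7. Rps15a, a body protein in which mutations cause Diamond-Blackfan anaemia, had the smallest adjusted p of all the genes in 7 libraries. It stood at 25.2, 53.3 and 80.2 FPKM in Control 15, 16 and 17, at 158, 821, 133 and 148 FPKM in AIA 5, 10, 31 and 38, and at 64.2, 96.1 and 112 FPKM in Acu 4, 6 and 28. AIA lay above the other groups without overlap. In 7 libraries it rose by 2.03 on the log2 scale (SE 0.36, limma adjusted p = 0.0119), and over the 29 fits run its adjusted p ranged from 0.00091 to 0.395, under 0.05 in 9. Rps12, a protein of the head, stood at 113, 248 and 246 FPKM in the Control libraries, 631, 2360, 539 and 580 FPKM in AIA and 203, 256 and 365 FPKM in Acu. It had a change of 1.87 (SE 0.42) in 7 libraries and 2.11 (SE 0.60) in all 10, where it did not pass. Of the 14 head proteins listed, which hold the tRNA and mRNA path, 7 rose in 7 libraries (median 1.40), where 10.1% of all genes did. Rps3, which lines the mRNA entry, was one of them at 1.55 (SE 0.34). Rps2, its neighbour there, did not pass, at 0.41 (SE 0.22). However, outside Control 17 and Acu 4, Rps2 held only 1.75% to 4.39% of the joint reads of Rps2 and its 19 copies. Over Rps2 and these copies, FPKM times gene length in kilobases summed to 340 and 275 in Control 15 and 16. In AIA 5, 31 and 38 this sum was 411, 491 and 698.

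Many of these genes share 50-base coding windows exactly with transcripts of other genes. Of the 15 tested genes with under 50% of their windows found elsewhere, 7 rose and Rpl3l fell in the same fit, with a median of 1.26, against 39 of 67 and a median of 1.45 for those with more. In all 10 libraries the medians were 1.52 and 1.51.

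Among large-subunit genes the median was 1.42 in all 10 libraries and 1.36 in 7, with 27 of 50 rising in 7. Rpl5 and Rpl11 form the particle that brings 5S ribosomal RNA to the subunit, and when free they bind Mdm2, which stabilizes p53. Rpl5 stood at 75.2, 137 and 207 FPKM in Control 15, 16 and 17, at 311, 586, 316 and 373 FPKM in AIA 5, 10, 31 and 38, and at 184, 257 and 266 FPKM in Acu 4, 6 and 28. Its AIA libraries were above all others. It rose by 1.77 (SE 0.35, limma adjusted p = 0.017) in 7 libraries, and its adjusted p ranged from 0.00234 to 0.334 over the 29 fits. Rpl11, at 113, 193 and 127 FPKM in Control and 352, 1003, 296 and 308 FPKM in AIA, had a change of 1.17 (SE 0.35) in 7 libraries and did not pass.

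The stalk proteins draw elongation factors to the ribosome. Rpl12, at the stalk base, stood at 59.7, 252 and 132 FPKM in Control 15, 16 and 17 and 553, 1042, 407 and 414 FPKM in AIA 5, 10, 31 and 38. Its change was 2.14 (SE 0.59) in all 10 libraries and 1.95 (SE 0.60) in 7, and passed in neither. Rplp0 was the one stalk gene to rise in 7 libraries, by 1.72 (SE 0.39); Rplp1 and Rplp2 had changes of 0.85 (SE 0.41) and 0.73 (SE 0.37) there. In all 10 libraries the order was another, with 1.15 (SE 0.76) for Rplp0, 1.46 (SE 0.85) for Rplp1 and 1.42 (SE 0.76) for Rplp2, none of which passed. The differences between the stalk genes were not tested. Of the 8 proteins at the exit tunnel and its rim, where the new chain leaves, 5 rose in 7 libraries, against 10.1% of all genes. They were Rpl19, Rpl22, Rpl26, Rpl31 and Rpl35. Rpl23a, a docking site for the signal recognition particle, stood at 201, 303 and 242 FPKM in Control, 229, 385, 351 and 260 FPKM in AIA and 334, 479 and 644 FPKM in Acu. Its AIA and Control libraries overlapped, and its change was 0.23 (SE 0.37) in 7 libraries. With the 7 copies of Rpl23a added, FPKM times gene length in kilobases summed to 222, 347 and 302 in Control 15, 16 and 17. In AIA 5, 10, 31 and 38 this sum was 398, 685, 458 and 384, above every Control library.

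Of 19 genes listed for Diamond-Blackfan anaemia, a failure of red cell production from ribosomal protein loss, 13 rose in 7 libraries (median 1.42). In that fit 10.1% of all genes rose. None of the 19 passed in all 10 libraries. Rpl32 had a change of 1.89 (SE 0.39, limma adjusted p = 0.0184) in 7 libraries, with 207 and 363 FPKM in Control 15 and 16, 957, 923 and 1026 FPKM in AIA 5, 31 and 38, and 750 and 876 FPKM in Acu 6 and 28. Its adjusted p ranged from 0.00366 to 0.42 over the 29 fits. Rpl13a, which also silences selected mRNAs in myeloid cells after interferon gamma, stood at 6.13, 12.7 and 15.9 FPKM in Control, 24.6, 42.8, 24.2 and 24.8 FPKM in AIA and 13.0, 15.5 and 18.5 FPKM in Acu. It rose by 1.55 (SE 0.38, limma adjusted p = 0.0337) in 8 libraries, with a range of 0.00131 to 0.323 over the 29 fits.

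Rpl3l was the one paralogue to pass in the 7-library fit, and it fell. It replaces Rpl3 in skeletal muscle and heart. Rpl3l stood at 18.9, 56.1 and 0.317 FPKM in Control 15, 16 and 17, at 0 (which allows up to 0.124 FPKM), 2.04, 7.81 and 1.65 FPKM in AIA 5, 10, 31 and 38, and at 0.344, 5.16 and 10.9 FPKM in Acu 4, 6 and 28. It was highest in the 2 Control libraries with muscle RNA. Skeletal muscle markers had means of log2(FPKM + 1) of 7.07, 8.90 and 0.88 in Control 15, 16 and 17, 0.90, 3.71, 6.22 and 4.07 in AIA 5, 10, 31 and 38, and 1.00, 5.48 and 6.74 in Acu 4, 6 and 28. Myh1 and Myh2 were at 0 in Control 17 and AIA 5, and the part of muscle RNA in the Rpl3l difference was not tested. Its change was -3.50 (SE 0.90, limma adjusted p = 0.0357) in 7 libraries and -1.98 (SE 1.25) in all 10, and the adjusted p ranged from 0.0179 to 0.683 over the 29 fits.

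Rpl3, the core partner near the peptidyl transferase centre, rose by 1.57 (SE 0.37) in 7 libraries, with 78.6, 66.6 and 265 FPKM in Control 15, 16 and 17 and 147, 890, 199 and 299 FPKM in AIA 5, 10, 31 and 38. Control 17 lay within the AIA range. Rps27l, which p53 induces, stood at 68.3 to 108 FPKM in Control, 94.9 to 158 FPKM in AIA and 73.3 to 111 FPKM in Acu, ranges that overlapped. Its change was 0.39 (SE 0.30) in 7 libraries, against 1.76 (SE 0.56) for Rps27. Rpl22l1 changed by 0.33 (SE 0.28) and Rpl22 by 1.40 (SE 0.33), and Rpl7l1 by 0.49 (SE 0.29) and Rpl7 by 1.59 (SE 0.33). Rpl39l changed by -0.09 (SE 0.23) and Rpl39 by 1.19 (SE 0.36). Rpl39l averaged only 0.52 FPKM in AIA 5, 31 and 38, a level at which this scale understates a change. None of the tested paralogues rose in this fit, and 5 of the 7 core partners did, while Rps27 and Rpl39 did not pass. The difference between paralogue and partner was not tested.

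Comparing Acu with AIA asks whether acupuncture altered the state after adjuvant. In all 10 libraries 70 of 82 genes had a negative log2 fold change, Acu minus AIA, with a median of -0.73 against 0.08 over all genes. None passed an adjusted p of 0.05 in limma, where 0% of all genes passed in either direction, and 10 had an unadjusted p under 0.05. The 8- and 7-library fits and limma array weights also gave 0 ribosomal genes, with 1 and 3 at an unadjusted p under 0.05 in the 8- and 7-library fits. All Acu libraries were below all AIA libraries for 28 genes, a pattern that 5.1% of all genes tested showed, and above them for none, against 6.04%. The median was -0.65 in 8 libraries and -0.24 in 7, where 62 of 82 genes were negative. Scaled to the same summed FPKM it was -0.18, with the median of all genes at 0.43.

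Rpsa, the laminin-binding protein of the small subunit, had one of the largest negative values. It stood at 931, 5550, 915 and 1212 FPKM in AIA 5, 10, 31 and 38 and at 286, 612 and 712 FPKM in Acu 4, 6 and 28, without overlap. Its change was -1.63 (SE 0.70) in all 10 libraries and -0.63 (SE 0.39) in 7. Rps12 had -1.63 (SE 0.60) and -0.94 (SE 0.42), and Rpl36a, a protein of the large subunit whose gene lies on the X chromosome, had -1.64 (SE 0.66) and -0.77 (SE 0.46). Rpl23a was higher in Acu 6 and 28 than in any AIA library, at 0.99 (SE 0.37) in 7 libraries, and did not pass. Rplp1 and Rpl22l1 were also without overlap on the higher side there, at 0.42 (SE 0.41) and 0.74 (SE 0.28), as were 7 of 82 genes in all and 12.9% of all genes tested. In the same 7 libraries 32 genes were without overlap on the lower side, as were 12.9% of all genes.

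Acu and Control share their libraries with both other comparisons. Between them 78 of 82 genes had a positive value in all 10 libraries, with a median of 0.68 against 0.02 over all genes. None passed an adjusted p of 0.05 in limma, where 0% of all genes passed, and 0 had an unadjusted p under 0.05. All Acu libraries were above all Control libraries for 22 genes and below them for Rpl39l, patterns that 4.87% and 4.27% of all genes showed. The 8-library fit also called none, with 4 at an unadjusted p under 0.05, where 0.871% of all genes passed upward and 3.52% downward, and limma array weights called 3, where 4.87% did. In 7 libraries 11 genes rose and 0 fell, where 5.57% and 7.45% of all genes did, with a median of 1.05, and 67 genes were higher without overlap, as were 32.6% of all genes. The count of 11 was 1 without AIA 38 and 0 without either of the other AIA libraries kept. Fits that left a single library in a group are not counted here. Rps13, a small-subunit body protein, stood at 46.5 and 81.5 FPKM in Control 15 and 16 and at 162 and 191 FPKM in Acu 6 and 28. It had a change of 1.55 (SE 0.36, limma adjusted p = 0.035) in 7 libraries, and its adjusted p ranged from 0.00378 to 1 over the 29 fits. The library labelled Control 17, at 106 FPKM, and that labelled Acu 4, at 110 FPKM, lay close together.

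AIA 10 differed from the other AIA libraries in these genes more than in most. It held the highest value of all 10 libraries for 67 of the 82 genes with reads. The median ratio of AIA 10 to the mean of AIA 5, 31 and 38 was 1.52 on the log2 scale, against -0.16 for 13017 other protein-coding genes. Highly expressed and short genes also had positive medians in it. The median was 0.28 for 674 other genes with at least 50 FPKM, and 0.90 for the 173 of those that are 500 to 1500 bases long. Ribosomal protein genes of that length had a median of 1.91 (26 genes) and longer ones of 1.44 (54 genes). Mitochondrial ribosomal protein genes had a median of 0.87, ribosome biogenesis genes 0.09 and mitochondrially encoded genes -1.27. This is 1 library, so no test was made.

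Within AIA 10 the genes spread over more than 7 log2 units. Rpl37a, a zinc-binding protein of the large subunit, stood at 5915 FPKM there and at 459 FPKM ± 41.5 (SD, n = 3) in the other AIA libraries, a log2 ratio of 3.68. Rps21 had a ratio of 3.32, Rplp1 of 3.21, Rplp2 of 3.09 and Rpl41, which encodes the smallest ribosomal protein, of 2.90. A few genes were lower in AIA 10. Rpl7a stood at 10.8 FPKM there and at 140 FPKM ± 39.9 (SD, n = 3) in the others, a ratio of -3.57. The division of reads between Rpl7a and its 17 copies differed too: Rpl7a held 11.6% of their joint reads in AIA 10 and 75.7% to 85.9% in the other AIA libraries. Summed over Rpl7a and its copies, FPKM times gene length in kilobases was 166 in AIA 10 against a mean of 304, a ratio of -0.87. Rpl15 had a ratio of -1.99, against the direction of the block, and -1.92 with its copies added. Rpl29 had a ratio of -1.26 alone and 0.55 with its copies. Rpl15 passed for AIA minus Control in 7 libraries, at 1.42 (SE 0.28), and not in all 10, at 0.63 (SE 0.52).

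**Figure D4:**
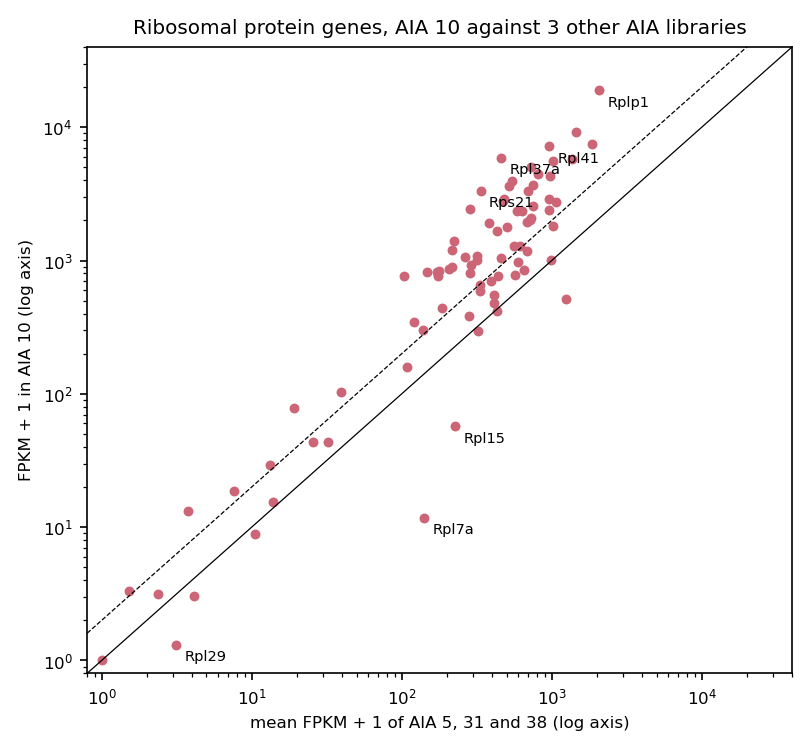
FPKM + 1 of each ribosomal protein gene in AIA 10 (y, log axis) against the mean of AIA 5, 31 and 38 (x, log axis); the solid line marks equal values and the dashed line a doubling. Most points lie above the dashed line, while Rpl7a, Rpl15 and Rpl29 lie below the solid line.

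Several genes with many sequence copies stood apart in 2 libraries. A median of 88.3% of each gene's 50-base coding windows also occurred, without a mismatch, in transcripts of other genes. All windows did so for 27 genes, and none did for Rpl39l and Rpl3l. Rps2, Rps18, Rpl21, Rpl26, Rpl29 and Rpl35a were each higher in Control 17 and Acu 4 than in any of the other 8 libraries. Rpl26, a tunnel-rim protein, stood at 429 and 368 FPKM in these libraries and at 3.96 to 10.5 FPKM in the others. Rpl29 stood at 298 and 268 FPKM against 0.313 to 2.82 FPKM. Rps2 stood at 421 and 458 FPKM against 4.22 to 17.5 FPKM, and Rps18 at 286 and 301 FPKM against 5.15 to 28.4 FPKM.

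The copies of Rpl26 and Rps18 examined here were low where the genes were high. Gm15772, a processed pseudogene at chr5:3236431-3236868 (plus strand), differs from Rpl26, at chr11:68901583-68906989 (plus strand), in 2 of 435 coding bases. It stood at 73.3 and 62.1 FPKM in Control 17 and Acu 4 and at 846 to 11122 FPKM in the other 8 libraries. Gm11361, at chr13:28257528-28258134 (plus strand) and annotated as protein-coding, differs from Rps18, at chr17:33951999-33956001 (minus strand), in 3 of 456 coding bases. It stood at 35.5 and 38.2 FPKM in Control 17 and Acu 4, and at 125 to 3234 FPKM in the others. The stretches below, on mm10 (GRCm38), cover coding bases 171 to 294 of Rpl26 and 165 to 343 of Rps18, with the bases that differ in capitals; they show how few positions tell a read of the gene from a read of its copy.
Rpl26: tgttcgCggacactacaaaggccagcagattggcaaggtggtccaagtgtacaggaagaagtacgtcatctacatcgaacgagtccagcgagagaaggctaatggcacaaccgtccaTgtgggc
Gm15772: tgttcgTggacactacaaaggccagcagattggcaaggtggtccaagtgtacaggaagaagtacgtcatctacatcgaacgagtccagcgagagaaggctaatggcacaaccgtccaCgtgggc
Rps18: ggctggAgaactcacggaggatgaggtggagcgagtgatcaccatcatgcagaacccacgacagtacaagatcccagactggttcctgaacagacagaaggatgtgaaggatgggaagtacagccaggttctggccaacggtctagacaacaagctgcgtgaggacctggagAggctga
Gm11361: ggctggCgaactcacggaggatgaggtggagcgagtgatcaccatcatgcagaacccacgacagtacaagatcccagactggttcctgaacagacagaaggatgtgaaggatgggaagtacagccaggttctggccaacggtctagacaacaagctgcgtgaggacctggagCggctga
Of the reads assigned to Rpl26 and its copies together, Rpl26 itself held 94.7% and 94.8% in Control 17 and Acu 4, and 0.231% to 1.83% in the other 8 libraries. Rps18 held 96.5% and 96.1% against 3.44% to 15.7%. Of the 69 genes with copies in the table, 15 had a higher own share in both libraries than in all the other 8, and Rpl9 and Rps27a a lower one. Control 17 and Acu 4 also differed from the other 8 libraries in decidua and trophoblast markers, as given above. Whether the deposited processing or the mouse differed was not tested, nor was the part of tissue in these shares.

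**Figure D5:**
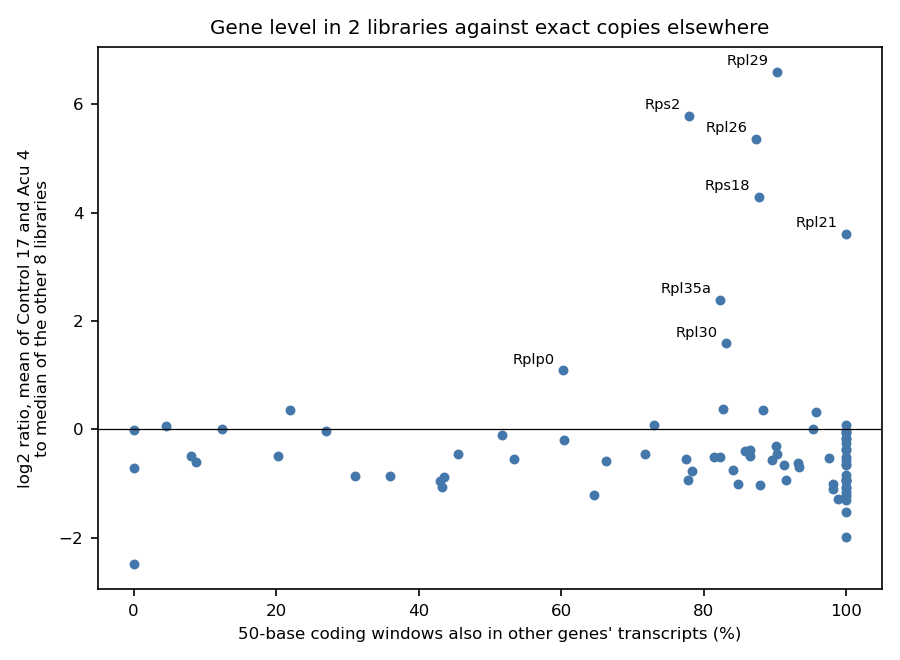
log2 ratio of the mean level in Control 17 and Acu 4 to the median of the other 8 libraries (y) against the percentage of a gene's 50-base coding windows that also occur in transcripts of other genes (x), with 1 point per ribosomal protein gene. The 8 labelled genes, with ratios above 1, all have over 50% of their windows elsewhere, and many genes with as many shared windows lie near or below 0.

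Adding the copies to a gene gave another view of the group differences. FPKM times gene length in kilobases, summed over Rpl26 and its copies, came to 377, 911 and 654 in Control 15, 16 and 17, 2291, 4889, 1497 and 1492 in AIA 5, 10, 31 and 38, and 560, 689 and 1041 in Acu 4, 6 and 28. All AIA libraries were then above all others. Rpl26 alone had a change of -1.21 (SE 1.63), AIA minus Control, in all 10 libraries and of 1.02 (SE 0.22) in 7. The sum over Rps18 and its copies overlapped between groups, with 91.7, 281 and 739 in Control, 408, 2060, 283 and 252 in AIA and 781, 224 and 339 in Acu.

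Other genes of the translation machinery were described from lists. Of 17 translation factors whose mRNAs carry the oligopyrimidine tract, 0 passed for AIA minus Control in all 10 libraries and 7 rose in 7 libraries, where 10.1% of all genes did, with medians of 0.98 and 1.19. Npm1, a nucleolar chaperone of ribosome assembly, stood at 50.1, 109 and 93.7 FPKM in Control 15, 16 and 17, at 267, 402, 244 and 305 FPKM in AIA 5, 10, 31 and 38, and at 97.7, 161 and 192 FPKM in Acu 4, 6 and 28. AIA lay above both other groups. It rose by 1.93 (SE 0.39, limma adjusted p = 0.0176) in 7 libraries, with a range of 0.00158 to 0.255 over the 29 fits. Eef1b2, an exchange factor for elongation factor 1A, also rose in 7 libraries, and Tpt1, a tract-bearing growth-related gene, had 1.41 (SE 0.46) and did not pass.

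Among 42 ribosome biogenesis genes 7 rose in 7 libraries, where 10.1% of all genes did, with medians of 0.48 in all 10 and 0.64 in 7. Gnl3, a nucleolar GTPase of dividing cells, rose by 1.57 (SE 0.31), and Fbl, which methylates ribosomal RNA, by 1.26 (SE 0.33). None of 14 RNA polymerase I genes passed in any of the 3 fits (medians 0.38, 0.24 and 0.38). Of 17 genes that control ribosomal protein mRNAs and genes, 0 rose and 2 fell in 7 libraries, a share close to the 11.2% of all genes that fell. Eif4ebp1, the brake on cap-dependent translation that mTOR releases, was one, at 138, 37.5 and 91.9 FPKM in Control 15, 16 and 17 and 9.90, 19.6, 10.5 and 13.3 FPKM in AIA 5, 10, 31 and 38. AIA lay below Control without overlap. It changed by -2.52 (SE 0.50, limma adjusted p = 0.0168), with a range of 0.000337 to 0.318 over the 29 fits, and Tsc2, an inhibitor of mTOR, was the other at -0.81 (SE 0.22). Myc, which drives ribosome genes, had 1.19 (SE 0.42) and did not pass.

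Of the ribosomal proteins outside the name rule, Rack1 and Fau rose in 7 libraries, by 1.55 (SE 0.35) and 1.39 (SE 0.38). Rpl36al had 0.90 (SE 0.32) and did not pass. The 76 tested mitochondrial ribosomal protein genes, a list added after values were seen, had medians of 0.05 in all 10 and -0.35 in 7 libraries, against -0.07 and 0.10 over all genes. In 7 libraries 8 of them fell, a share near the 11.2% of all genes.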

How the data were processed

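The authors deposited FPKM for 54987 genes in each of 10 libraries with gene lengths, names and coordinates; the build mm10 and the tools featureCounts 1.5.0-p3, HISAT2 2.0.5, DESeq2 1.16.1 and StringTie 1.3.3b are named without role, per the submitters' processing notes. Use of strand, and the handling of reads that match several genes, are not given in the sources used here. Values were whole multiples of 1 read for 100% of genes above 0 (tolerance 0.01), which gave 13269763 to 18926894 reads per library; the limit of 3 reads covers counting error only. Over all 10 libraries the deposited FPKM needed no further scaling by the median of ratios. In fits that left libraries out, the factors were computed again from the libraries kept, so values there were rescaled. log2(FPKM + 1) of genes that reached 0.5 FPKM in 3 or more libraries was fitted by limma 3.58.1 (R 4.3.3) with a mean-variance trend and no covariates, all groups sharing 1 spread, and adjusted by Benjamini and Hochberg over all genes tested (threshold 0.05). A fold change on the log2(FPKM + 1) scale understates the change of low genes. The fits were tested on simulated data with the spread of the 7 libraries, so that test did not cover Control 17, Acu 4 and AIA 10. Alternatives were a pseudocount of 0.1, no filter, other or no scaling, limma array weights and no trend. Others used only the groups compared or left out libraries, in some cases with a single library left in a group. No scaling repeated the main fit, and both count among the 29. For the share, other sums and other members were used.

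Copies were sought as exact matches of 50-base coding windows in GENCODE M21 transcripts (GRCm38); 77 of the 83 genes have the same coordinates there. Promoters and start sites are RefSeq's. Genes were named by rank of level, fold change and residual spread, by role lists and, for other genes, as up to 4 per pathway list; Rps3, Rps4x, Rps10, Rps21, Rps24, Tsc2 and the copies were named after their values were seen unless a list holds them. The results of some genes that these choices cover are not reported here. The genes and lists were chosen with earlier results of these data known. Python 3.11.15 with numpy 2.4.6, pandas 2.3.3, Biopython 1.88 and matplotlib 3.10.9 was used.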

Additional observations from a re-analysis of the deposited data

Results flagged for a closer look

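In 22 quantities 1 AIA library lay far from the other 3, with the gap to its nearest neighbour divided by the whole range above Dixon's 95% critical value for 4 samples. Chance flags about 1 in 20 groups, and 18 of the 48 named ribosomal protein genes examined were so placed; the genes share their libraries, so these are not independent. AIA 10 was the distant library in all but 1 of them. The ratio was 0.929 for the share of summed FPKM, 0.931 for large-subunit and 0.926 for small-subunit genes alone, and 0.849 for the ratio of large to small. AIA 10 was highest for Rpl11 (0.859), Rpl13a (0.953), Rpl19 (0.923), Rpl32 (0.932), Rpl35 (0.865), Rpl36 (0.865), Rpl36a (0.847), Rpl37a (0.936) and Rplp1 (0.936). It was also highest for Rps2 (0.841), Rps12 (0.893), Rps13 (0.940), Rps15 (0.919), Rps15a (0.905), Rps20 (0.877) and Rpsa (0.844). It was lowest for Rpl15, with a ratio of 0.850. AIA 38 was the distant library for Rpl35a, below the 14.1 to 14.6 FPKM of the other 3, with a ratio of 0.909.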

How the results depend on the processing

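No paired analysis was possible because the groups share no replicate number. For AIA minus Control, 0 genes passed in all 10 libraries, 32 with limma array weights, and between 0 and 3 with 1 library left out: 2 without Control 17 and 3 without Acu 4. The count was 6 without Control 17 and Acu 4 and 47 without AIA 10 as well. Leaving out 1 more of the 7 libraries, a choice made after seeing the data, gave 7 without Control 15, 63 without Control 16, 7, 2 and 1 without AIA 5, 31 and 38, and 18 and 16 without Acu 6 and 28. Rpl26 turned from its negative value in all 10 libraries to 1.02 in the 7, and to 1.14, 1.02 and 1.02 there without Control 16, Acu 6 or Acu 28; Rps18 reached 1.13 without Control 16. For Acu minus Control the count was 3 with array weights, 11 in 7 libraries, and 59 and 1 when Control 16 or AIA 38 was left out of these; the median was 1.38 without Control 16 and 1.17 without Acu 6. For Acu minus AIA the median was -0.18 under the same summed FPKM, and -0.21 and -0.11 in 7 libraries without AIA 38 or Acu 6. The share of summed FPKM times length was 2.80% in Control and 5.51% in Acu, and the Acu share of protein-coding FPKM was 11.3%. Of 5524 values of named genes under alternatives, 250 came past the threshold and 244 changed sign with neither value past it. Depth limits only the lowest genes, such as Rpl10l.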
